A study of Arabidopsis thaliana with 30 samples.

Results

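GH3.1 (AT2G14960), GH3.2 (AT4G37390), GH3.3 (AT2G23170), GH3.5 (AT4G27260), GH3.6 (AT5G54510) and GH3.17 (AT1G28130) are the 6 Arabidopsis thaliana genes described here, taken by locus code from the 39542 distinct gene identifiers of the series. They belong to the GH3 family and encode acyl acid amido synthetases that join auxin (indole-3-acetic acid, IAA) to an amino acid. Conjugation lowers the pool of free auxin, and several of these genes are themselves switched on by auxin, so that they act as a brake on auxin signalling. GH3.17 (also VAS2) makes glutamate conjugates of IAA, GH3.5 (also WES1) accepts salicylic acid as well as IAA, GH3.2 is also known as YDK1 or BRU6 and GH3.6 as DFL1, and GH3.3, GH3.5 and GH3.6 are known for their part in adventitious rooting. Some conjugates can be cleaved again by hydrolases of the ILR1 family, and the oxidase DAO1 removes IAA by another route.

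The study profiled RNA of 5-day-old seedlings in 30 libraries, 3 in each of 10 groups. A mutant called pear sextuple was compared with the wild type Col-0, both as whole root meristems and without induction. By its name the mutant carries lesions in 6 genes of the PEAR group of Dof transcription factors, which act in early phloem development. A pair of Col-0 lines carried estradiol-inducible transgenes of related zinc finger genes, pWOL(XVE)::ZAT14-like-TURQ or pWOL(XVE)::ZAT14-TURQ, driven from a promoter of the vascular cylinder. Their whole root meristems were taken after 10 h or 14 h on 5 µM estradiol, or from DMSO controls. The last pair of groups came from a cross of the sieve element nuclear reporter pCALS7::H2B-RFP with pNAC086(XVE)::PLT2-3YFP, which puts the stem cell niche factor PLT2 under an inducible promoter of maturing sieve elements. Its roots were kept for 6 h on 10 µM estradiol or on DMSO and protoplasted. Cells positive for RFP and YFP were sorted after estradiol and cells positive for RFP after DMSO, so the gates differed between these groups. The induced groups have no counterpart without a transgene that received estradiol. Meristems were pooled within a library and each line is known only by its name. Whether replicate libraries were grown apart is not given in the sources used here, and the p-values speak only to the scatter among these libraries, which may be technical. In pooled meristems and sorted cells alike, fewer cells of a type and less RNA per cell cannot be told apart.

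In the RefSeq annotation of TAIR10.1 the genes lie apart, at chr2:6451319-6453797 (GH3.1, minus strand), chr4:17579618-17582022 (GH3.2, plus), chr2:9863855-9866562 (GH3.3, minus), chr4:13653579-13656285 (GH3.5, plus), chr5:22130964-22133688 (GH3.6, minus) and chr1:9825169-9828118 (GH3.17, plus). Each has 3 coding exons except GH3.17, which has 4, and no annotated gene overlaps any of them. GH3.2 and GH3.3 are 81.4% identical over their aligned coding bases, with a longest identical run of 56 bases, and GH3.5 and GH3.6 are 84.1% identical, with a longest run of 42 bases. The other pairs are 63.4% to 73.2% identical. How the authors' counting treated reads that could come from either gene of a pair is not given in the sources used here.

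The 300 bases before the annotated start are printed for GH3.2, GH3.3, GH3.5 and GH3.6, the genes whose levels moved in the ZAT14-like line. Auxin response factors, the transcription factors of the auxin pathway, bind the auxin response element TGTCTC and its variant TGTCGG. Both motifs were searched on both strands, and capitals mark TGTCTC. The sequences are from RefSeq, TAIR10.1, written 5′ to 3′ on the gene's strand.
GH3.2, chr4:17579318-17579617, plus strand: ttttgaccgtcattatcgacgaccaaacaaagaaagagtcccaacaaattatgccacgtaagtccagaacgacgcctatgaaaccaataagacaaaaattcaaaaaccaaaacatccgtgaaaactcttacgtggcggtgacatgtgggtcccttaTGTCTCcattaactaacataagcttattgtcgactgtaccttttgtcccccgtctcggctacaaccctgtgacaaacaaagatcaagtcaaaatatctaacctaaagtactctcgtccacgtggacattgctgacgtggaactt
GH3.3, chr2:9866563-9866862, minus strand: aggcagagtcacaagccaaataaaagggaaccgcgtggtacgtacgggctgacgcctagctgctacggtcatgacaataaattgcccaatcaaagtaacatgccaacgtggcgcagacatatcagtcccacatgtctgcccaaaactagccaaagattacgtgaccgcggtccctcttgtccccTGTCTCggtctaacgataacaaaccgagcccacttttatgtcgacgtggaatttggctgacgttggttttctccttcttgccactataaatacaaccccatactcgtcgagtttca
GH3.5, chr4:13653279-13653578, plus strand: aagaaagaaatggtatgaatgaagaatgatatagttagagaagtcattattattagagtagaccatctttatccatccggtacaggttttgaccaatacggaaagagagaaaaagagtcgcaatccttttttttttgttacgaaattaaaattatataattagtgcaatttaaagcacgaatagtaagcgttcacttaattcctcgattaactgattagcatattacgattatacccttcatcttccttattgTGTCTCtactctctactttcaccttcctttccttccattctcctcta
GH3.6, chr5:22133689-22133988, minus strand: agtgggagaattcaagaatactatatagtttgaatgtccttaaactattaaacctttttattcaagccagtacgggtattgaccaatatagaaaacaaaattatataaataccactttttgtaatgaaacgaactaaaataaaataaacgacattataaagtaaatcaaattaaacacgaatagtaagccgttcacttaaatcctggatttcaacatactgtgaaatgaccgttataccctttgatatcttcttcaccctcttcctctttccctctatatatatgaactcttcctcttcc

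TGTCTC occurred once in the windows of GH3.2, GH3.3 and GH3.5, on the gene's own strand, at bases 144 to 139, 116 to 111 and 47 to 42 before the start. It was not found in the windows of GH3.1, GH3.6 and GH3.17, and TGTCGG was found in none of the 6. Of 27443 such windows in the annotation, 13% held TGTCTC, 4.91% held TGTCGG and 17.3% held at least 1 of the motifs. A match is a description of these letters only.

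Levels in meristems are FPKM as the authors deposited them, that is, fragments scaled by transcript length and library total. Depth estimated from the smallest steps of the values was about 18000000 to 26500000 fragments per library in the ZAT table, and 17700000 to 25800000 by a weaker estimate in the mutant table. The sorted-cell libraries held 31426740 to 44837397 counts, and the library PLT2_DMSO replicate 2 stood apart with 36.5% of genes at 0, against 10.3% to 17.8% in the other sorted libraries. Which alleles the mutant carries is not given in the sources used here. PEAR1, PEAR2, DOF6 and OBP2 were lower in pear sextuple meristems than in Col-0 (OBP2 at 0.18 ± 0.113 FPKM, against 6.22 ± 0.737), whereas TMO6 averaged 78.6 ± 4.25 FPKM in pear sextuple and 12.3 ± 1.05 FPKM in Col-0, and HCA2 2.18 ± 0.715 and 0.283 ± 0.0845 FPKM (SD, n = 3 each). The ZAT14-like transcript reached 5.98, 54.9 and 71.4 FPKM in its line on DMSO and after 10 h and 14 h of estradiol, and the ZAT14 transcript 15.2, 45.4 and 68.2 FPKM in its own line. On DMSO the ZAT14-like transcript was already higher in its own line than in the ZAT14 line, at 0.677 FPKM (limma, log2 fold change 2.07, adjusted p = 7.45e-08). PLT2 rose after estradiol in the sorted cells (edgeR quasi-likelihood test, log2 fold change 11.91, adjusted p = 0.0166).

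GH3.17 was the most abundant of the 6 transcripts in all 8 meristem groups, and its lowest library lay above the highest library of every other member. In the ZAT lines on DMSO, GH3.5, GH3.6 and GH3.1 followed at 3.08 to 3.97 FPKM. GH3.2 and GH3.3 were barely detected there, with no library above 0.18 FPKM. The order on DMSO ran GH3.17, GH3.5, GH3.6, GH3.1, GH3.2 and GH3.3 in both lines, and Col-0 in its separately processed table gave the same order. Neighbours overlapped in range for GH3.5 and GH3.6 in all 3 of these groups, and for GH3.6 and GH3.1 and for GH3.2 and GH3.3 in the ZAT14-like line. In Col-0, GH3.2 and GH3.3 also overlapped.

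In pear sextuple meristems GH3.17 was higher and GH3.1 lower than in Col-0, and GH3.5 and GH3.6 did not pass the test. GH3.17 had 59.2, 59 and 60 FPKM in the pear sextuple libraries, against 26.5, 23 and 18.7 FPKM in Col-0. The groups lay far apart and the mutant libraries were close together, with means of 59.4 ± 0.558 and 22.7 ± 3.89 FPKM (SD, n = 3 each), a ratio of 2.61. On the log2(FPKM + 1) scale, which understates the change of low genes, the difference was 1.36 ± 0.11 (SE, limma, two-sided, Benjamini-Hochberg adjusted p = 3.12e-05). All 10 alternative analyses called GH3.17, with log2 differences of 1.14 to 1.48. GH3.1 had 1.68, 1.14 and 2.05 FPKM in pear sextuple and 2.22, 2.95 and 2.79 FPKM in Col-0. Here too the groups did not overlap, but the gap was small, and the log2 difference was -0.49 ± 0.16 (SE, limma adjusted p = 0.0254). That call was lost in 4 of the 6 fits that left out 1 library (pear sextuple replicate 2 or 3, Col-0 replicate 2 or 4), with an adjusted p of up to 0.092.

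GH3.5 had 4.25, 3.01 and 3.77 FPKM in pear sextuple and 4.07, 2.88 and 3.34 FPKM in Col-0. GH3.6 had 4.11, 3.58 and 3.99 FPKM in pear sextuple and 3.94, 3.07 and 3.1 FPKM in Col-0. Both genes overlapped between genotypes, with limma log2 differences of 0.08 (95% interval -0.20 to 0.36, adjusted p = 0.649) and 0.17 (-0.06 to 0.39, adjusted p = 0.229). GH3.2 and GH3.3 did not reach 1 FPKM in any library of this table and were not tested. GH3.2 had 0.197, 0.393 and 0.432 FPKM in pear sextuple and 0.396, 0 and 0.116 FPKM in Col-0. GH3.3 had 0.124, 0.079 and 0.0362 FPKM in pear sextuple and 0.0362, 0 and 0.0234 FPKM in Col-0.

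The count of 2 of 4 tested members called stands beside 63.2% of all 17062 tested genes, 44.6% higher and 18.6% lower, so a call is not unusual in this comparison. The median gene was 0.21 higher in pear sextuple on the log2 scale. After the libraries were rescaled by median ratios, 4955 genes were called higher and 5024 lower, in place of 7602 and 3176, and the log2 difference of GH3.17 was 1.14 and that of GH3.1 -0.64. Among the root cap markers SMB, BRN1, BRN2 and FEZ, 3 of 4 were higher in pear sextuple (BRN2, BRN1 and SMB), none was at 0, and their summed level was 185 to 209 FPKM in pear sextuple and 76.4 to 93.3 FPKM in Col-0. The 6 meristem and stem cell niche markers, none at 0, summed to 143 to 156 FPKM in pear sextuple and 92.7 to 106 FPKM in Col-0, with 3 of 6 called higher (WOX5, PLT1 and PLT2). The widest difference in level was that of PLT1, at 58.5 FPKM in pear sextuple and 22.5 FPKM in Col-0, whereas SCR had 25.4 and 24.3 FPKM and SHR 22.7 and 22.3 FPKM. The cell division marker CYCB1;1 was called lower after rescaling (log2 difference -0.45, limma adjusted p = 0.00653). The part of either marker list in the GH3.17 result was not tested. The summed level of the 6 GH3 genes was 69 ± 1.63 FPKM in pear sextuple and 32.4 ± 4.57 FPKM in Col-0, of which GH3.17 made up 86.1 ± 1.48% and 70 ± 2.91% (SD, n = 3 each).

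**Figure D1:**
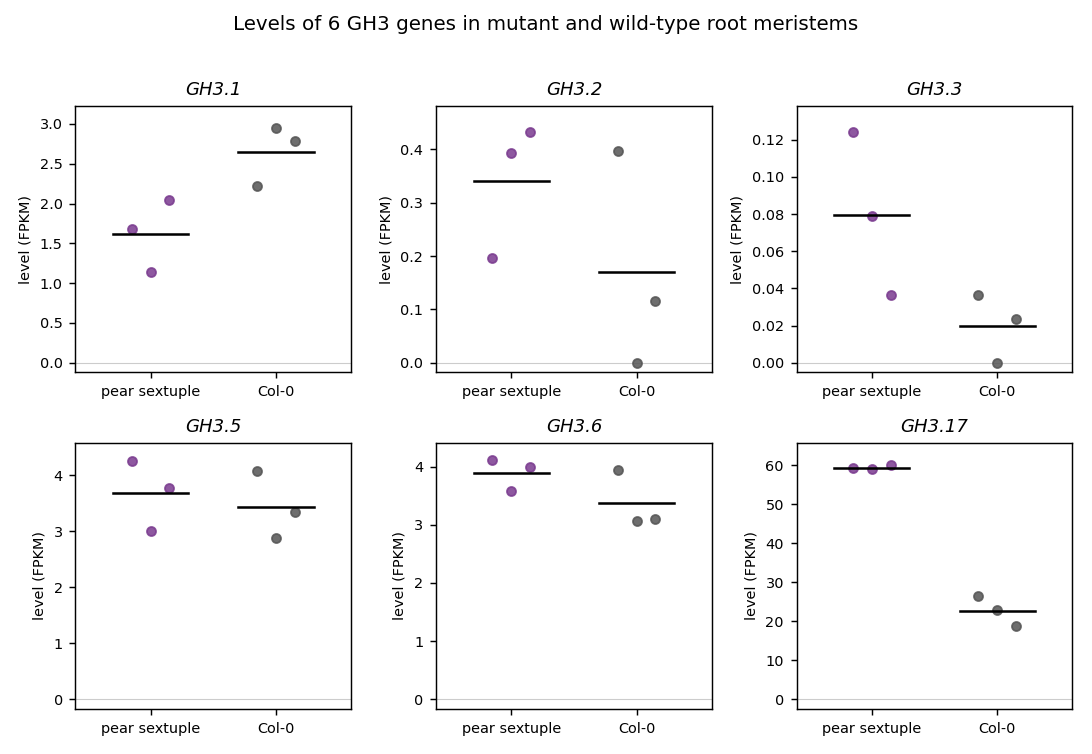
Level (FPKM, linear axis) of each of the 6 GH3 genes in every pear sextuple and Col-0 library, 1 panel per gene with its own axis. Points are libraries and black lines are means of 3. GH3.17 lies at 59 to 60 FPKM in pear sextuple and 18.7 to 26.5 FPKM in Col-0, GH3.1 is lower in pear sextuple without overlap, and GH3.5 and GH3.6 overlap.

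Estradiol in the ZAT14-like line was followed by opposite changes within the 6 genes. GH3.2 and GH3.3, nearly undetected on DMSO, rose to 2.85 and 1.44 FPKM at 14 h, while GH3.5 fell to 0.385 times its DMSO level, GH3.6 fell less and GH3.17 showed no change past the test. With ZAT14, GH3.3 rose to 1.19 FPKM by 14 h and GH3.5 fell, while GH3.2 rose less. GH3.2 and GH3.3 passed the filter on low values (1 FPKM in 3 libraries) only through estradiol libraries in which they were high, so nothing is read from how many members were called. The ZAT14-like line had 3 members called at 10 h, beside 13.8% of all genes, and 4 at 14 h, beside 12.4%. The ZAT14 line had 1 at 10 h, beside 3.21%, and 3 at 14 h, beside 4.28%. These shares of all genes depend on single libraries: the 2365 genes of the ZAT14-like line at 10 h became 1077 without DMSO replicate 2 and 3731 without 10 h replicate 4, and its 2123 genes at 14 h became 1097 without 14 h replicate 3. In the ZAT14 line 551 genes at 10 h became 150 without DMSO replicate 4, and 735 genes at 14 h became 343 without 14 h replicate 4. Both times of a line are set against the same 3 DMSO libraries.

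GH3.2 in the ZAT14-like line had 0, 0.0362 and 0.0664 FPKM on DMSO, 1.24, 1.37 and 1.12 FPKM at 10 h and 3.21, 2.48 and 2.85 FPKM at 14 h. The 3 groups did not overlap, and by the depth estimate these values stand for 0 to 2.96 fragments per library on DMSO and 107 to 148 at 14 h. Against DMSO the log2 difference was 1.11 ± 0.11 at 10 h (adjusted p = 6.16e-06) and 1.89 ± 0.11 at 14 h (adjusted p = 5.63e-09; SE, limma), and 14 h was 2.3 times 10 h (adjusted p = 0.000456). With a pseudocount of 0.1 FPKM in place of 1 the differences from DMSO were 3.35 and 4.48. GH3.2 in the ZAT14 line had 0.0865, 0.0687 and 0.18 FPKM on DMSO, 0.211, 0.152 and 0.126 FPKM at 10 h and 0.486, 0.609 and 0.77 FPKM at 14 h. The first 2 of these groups overlapped, and the 14 h libraries lay above both. The ZAT14 line's log2 difference from DMSO was 0.07 at 10 h (limma adjusted p = 0.859) and 0.54 ± 0.11 at 14 h (adjusted p = 0.00717), a ratio of 5.57 between mean levels, and 1.79 with the smaller pseudocount. The 14 h call was lost without the 14 h replicate 4 library (adjusted p = 0.0508) and without all libraries numbered 2 (adjusted p = 0.0706).

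GH3.3 in the ZAT14-like line had 0, 0 and 0.0454 FPKM on DMSO, 0.476, 1.16 and 0.742 FPKM at 10 h and 1.38, 1.67 and 1.27 FPKM at 14 h. GH3.3 in the ZAT14 line was listed at 0 in all 3 DMSO libraries, and had 0.234, 0.178 and 0.259 FPKM at 10 h and 0.883, 1.45 and 1.22 FPKM at 14 h. In each line every later group lay above every earlier one. The log2 differences from DMSO were 0.80 ± 0.14 at 10 h (adjusted p = 0.00145) and 1.26 ± 0.14 at 14 h (adjusted p = 8.4e-06) in the ZAT14-like line, and 0.29 at 10 h (adjusted p = 0.331) and 1.12 ± 0.14 at 14 h (adjusted p = 0.000108) in the ZAT14 line (SE, limma). With a pseudocount of 0.1 FPKM they were 2.90 and 3.76 in the ZAT14-like line and 1.69 and 3.66 in the ZAT14 line, and the 10 h difference of the ZAT14 line then passed the test (adjusted p = 0.0142). From 10 h to 14 h GH3.3 increased 5.3 times in the ZAT14 line (limma adjusted p = 0.00208) and 1.82 times in the ZAT14-like line (adjusted p = 0.0455), and only 4 of 12 alternative analyses called the ZAT14-like increase, with an adjusted p of up to 0.24 in the others. No more than 2 members were called between 10 h and 14 h in either line, beside 8.66% of all genes in the ZAT14-like line and 5.03% in the ZAT14 line.

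GH3.5, the enzyme that also takes salicylic acid, had 3.31, 3.83 and 3.55 FPKM on DMSO in the ZAT14-like line, 1.77, 1.82 and 1.62 FPKM at 10 h and 1.32, 1.25 and 1.54 FPKM at 14 h. The ZAT14 line had 4.12, 3.43 and 4.36 FPKM on DMSO, 2.46, 2.3 and 1.7 FPKM at 10 h and 2.64, 2.68 and 2.15 FPKM at 14 h. All estradiol libraries of both lines lay below all DMSO libraries. The mean levels were 0.488 and 0.385 times DMSO at 10 h and 14 h in the ZAT14-like line (limma log2 differences -0.74 ± 0.11 and -0.94 ± 0.11 SE, adjusted p = 0.000447 and 1.8e-05). For ZAT14 they were 0.542 and 0.627 times DMSO (-0.66 ± 0.11 and -0.51 ± 0.11, adjusted p = 0.0041 and 0.0127). All 12 alternatives kept each call in the ZAT14-like line. With ZAT14 the 10 h call was lost when only the compared groups were fitted (adjusted p = 0.0751), and the 14 h call was lost without DMSO replicate 4 (adjusted p = 0.073) or 14 h replicate 4 (adjusted p = 0.0793).

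GH3.6, the closest relative of GH3.5 among the members, had 2.95, 3.74 and 2.96 FPKM on DMSO in the ZAT14-like line, 2.87, 2.2 and 2.24 FPKM at 10 h and 2.3, 2.24 and 2.53 FPKM at 14 h. The ZAT14 line had 3.91, 3.63 and 3.86 FPKM on DMSO and 3.1, 3.57 and 3.75 FPKM at 14 h, and averaged 2.88 ± 0.272 FPKM at 10 h (SD, n = 3). The groups overlapped between DMSO and 14 h in the ZAT14 line and not in the other comparisons with DMSO. The ZAT14-like fall at 14 h was the 1 difference that passed the test, and barely (limma log2 difference -0.33 ± 0.1 SE, adjusted p = 0.0443): 3 of 12 alternatives called it, and the adjusted p reached 0.241 in the others. The others were -0.29 at 10 h in the ZAT14-like line (adjusted p = 0.0615), and with ZAT14 -0.31 at 10 h (adjusted p = 0.119) and -0.10 at 14 h (adjusted p = 0.699).

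GH3.17 stayed within 15.8 to 20.7 FPKM in all 18 libraries of the ZAT table. Group means were 18.8, 19.3 and 18.3 FPKM with ZAT14-like on DMSO, after 10 h and after 14 h, and 18.7, 18.7 and 18.5 FPKM with ZAT14. The log2 differences from DMSO were 0.03 (95% interval -0.18 to 0.24) and -0.03 (-0.24 to 0.18) in the ZAT14-like line, and 0.01 (-0.20 to 0.22) and -0.01 (-0.22 to 0.20) in the ZAT14 line. The widest bound of these intervals is 0.24 in either direction. GH3.1 averaged 3.08 ± 0.451, 3.92 ± 0.415 and 3.45 ± 0.557 FPKM under DMSO, 10 h and 14 h in the ZAT14-like line, and 3.23 ± 0.493, 2.43 ± 0.336 and 3.54 ± 0.343 FPKM in the ZAT14 line (SD, n = 3 each). At 10 h all 3 ZAT14-like libraries lay above their DMSO libraries, at 3.61 to 4.39 FPKM against 2.8 to 3.6 FPKM. With ZAT14, 2 of 3 libraries at 10 h (2.37 and 2.13 FPKM) lay below the DMSO range of 2.66 to 3.56 FPKM and the third (2.79 FPKM) within it. None of these differences passed the test, with log2 differences from DMSO of 0.27 and 0.12 in the ZAT14-like line (limma adjusted p = 0.135 and 0.545) and -0.30 and 0.11 in the ZAT14 line (adjusted p = 0.238 and 0.76).

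**Figure D2:**
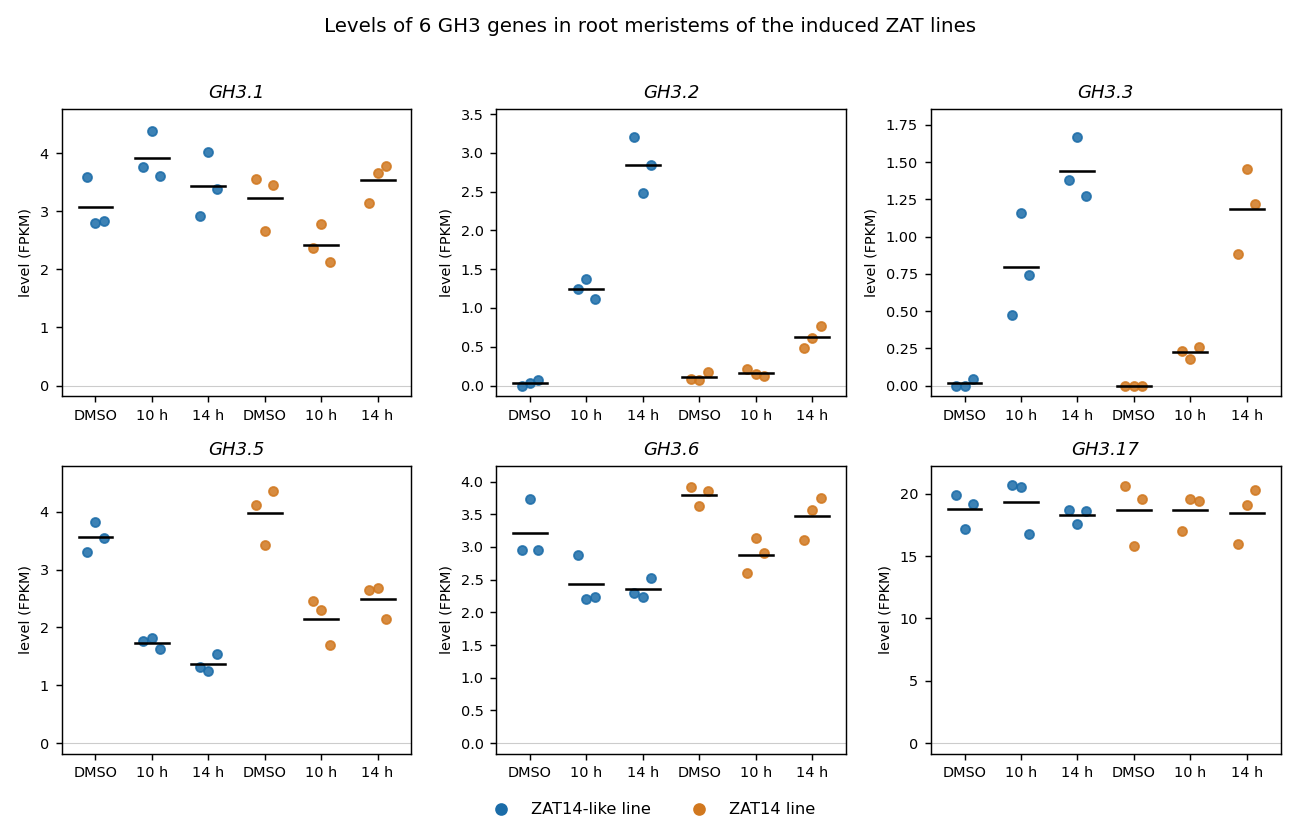
Level (FPKM, linear axis) of each of the 6 GH3 genes in 18 libraries, from the ZAT14-like line and the ZAT14 line under DMSO, 10 h and 14 h of estradiol, 1 panel per gene with its own axis. Points are libraries and black lines are means of 3. GH3.2 and GH3.3 are near 0 on DMSO and climb with time on estradiol, GH3.5 is lower in all estradiol groups, and GH3.17 stays between 15.8 and 20.7 FPKM.

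The response of GH3.2 was larger in the ZAT14-like line than in the ZAT14 line at both times. The difference between the responses (the ZAT14-like log2 change minus the ZAT14 log2 change) was 1.05 ± 0.15 at 10 h (1.11 against 0.07; adjusted p = 0.00585) and 1.35 ± 0.15 at 14 h (1.89 against 0.54; adjusted p = 0.000305; SE, limma). GH3.2 reached 1 FPKM only in the ZAT14-like libraries at 10 h and 14 h and passed the filter through them, so nothing is read from its being the 1 member called, beside 0.181% of all genes at 10 h and 0.361% at 14 h. All 18 alternatives called the 14 h difference. At 10 h the call was lost when only the compared groups were fitted (adjusted p = 0.0727) and without the libraries numbered 2 (adjusted p = 0.0594). With a pseudocount of 0.1 FPKM the differences between the responses were 3.01 and 2.69. GH3.3 did not differ past the test, by 0.51 at 10 h (adjusted p = 0.587) and by 0.14 at 14 h (95% interval -0.23 to 0.52, adjusted p = 0.97). For GH3.5 the difference between the responses was -0.08 at 10 h (limma adjusted p = 0.887) and -0.43 at 14 h (95% interval -0.74 to -0.13, adjusted p = 0.593). That of GH3.1 was 0.57 at 10 h (0.27 against -0.30; 95% interval 0.24 to 0.91, limma adjusted p = 0.425). At 14 h it was 0.02 (adjusted p = 0.996). GH3.6 and GH3.17 did not pass the test at either time. On DMSO the lines were not separated by any member. No member was called by limma in that comparison, beside 0.0991% of all genes, and none had an unadjusted p under 0.05.

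**Figure D3:**
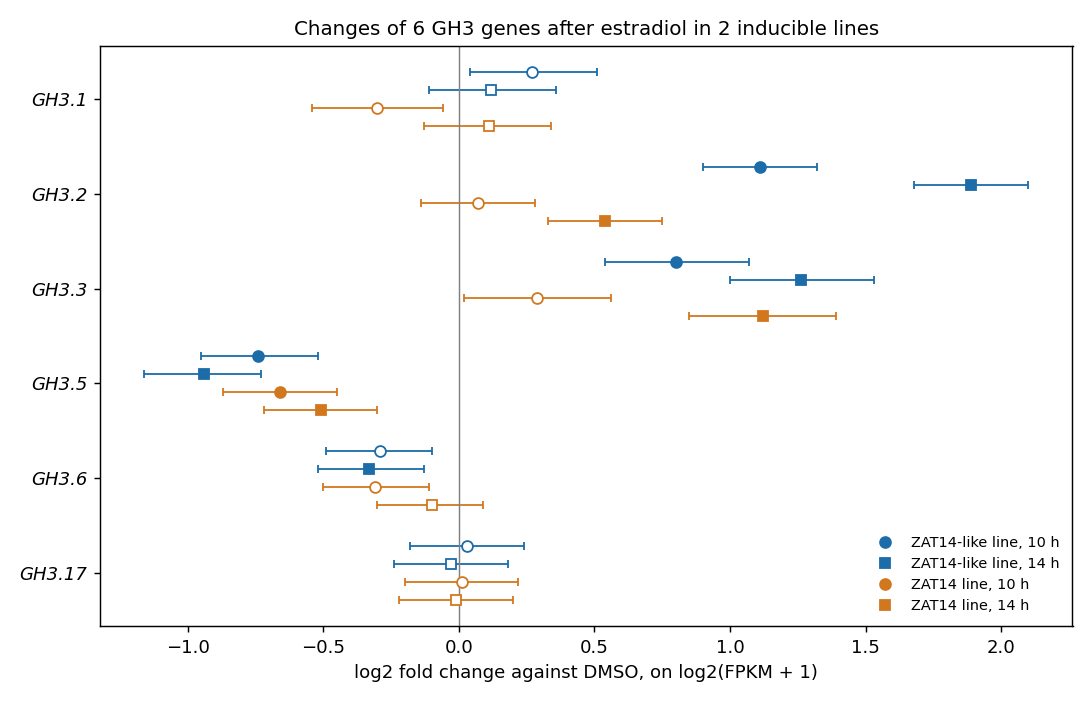
Change from DMSO of the 6 GH3 genes at 10 h and 14 h of estradiol in the ZAT14-like and ZAT14 lines, as a difference of mean log2(FPKM + 1) with its 95% interval (limma, n = 3 libraries a group). Filled points passed an adjusted p of 0.05 and open points did not. GH3.2 and GH3.3 lie to the right of 0, with GH3.2 at 1.89 in the ZAT14-like line and 0.54 in the ZAT14 line at 14 h, and GH3.5 lies left of 0 throughout.

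These shifts changed the order of the genes, while most of their sum was GH3.17, which did not change past the test. The summed level of the 6 genes was 28.7, 29.4 and 29.7 FPKM in the ZAT14-like line under DMSO, 10 h and 14 h, and 29.8, 26.5 and 29.8 FPKM in the ZAT14 line. In the ZAT14-like line GH3.5 was by mean the second most abundant member on DMSO and the least abundant at 14 h. Its range overlapped that of GH3.6 on DMSO and that of GH3.3 at 14 h. GH3.2 climbed to the third place, although its range at 14 h overlapped those of GH3.1 and GH3.6. At 14 h of ZAT14 induction GH3.3 and GH3.2 were still the lowest, at 1.19 and 0.622 FPKM. GH3.17 made up 65.4%, 65.5% and 61.5% of the sum under DMSO, 10 h and 14 h in the ZAT14-like line, and 62.6%, 70.4% and 62% in the ZAT14 line. The summed level of the 6 xylem markers was higher at 14 h than on DMSO in both lines. It was 14.9 to 21.5 FPKM on DMSO, 24.7 to 28.7 FPKM at 10 h and 39.4 to 53.9 FPKM at 14 h in the ZAT14-like line. In the ZAT14 line it was 14.1 to 21, 15.9 to 21.1 and 24.5 to 26.3 FPKM. Not all 6 moved with the sum. With ZAT14-like, XCP1 averaged 3.51 FPKM on DMSO and 29 FPKM at 14 h, and XCP2 2.51 and 13.3 FPKM. VND7 had 0.535 and 0.723 FPKM there and VND6 0.0582 and 0.0629 FPKM. With ZAT14, VND7 had 0.487 FPKM on DMSO and 0.402 FPKM at 14 h. Neither VND gene was tested. Of 4 tested xylem markers, 3 were called higher and 1 lower at 14 h with ZAT14-like, and 2 higher and 1 lower at 14 h with ZAT14. The lower one was ACL5, at 10.8, 4.4 and 1.82 FPKM under DMSO, 10 h and 14 h in the ZAT14-like line. None of the 6 was at 0 in all libraries of a group, but VND6 was at 0 in at least 1 library of every group except ZAT14-like at 10 h. WOX5, a homeobox gene of the quiescent centre, was called higher at both times in both lines, at 0.605, 23.2 and 22.9 FPKM under DMSO, 10 h and 14 h with ZAT14-like, while with ZAT14 it had 0.693 FPKM on DMSO and 7.27 FPKM at 10 h. It was also called in the difference between the responses at 10 h. The summed meristem markers, WOX5 among them, were 94.9 to 101, 106 to 118 and 105 to 116 FPKM with ZAT14-like. With ZAT14 the sums were 94 to 97.1, 94.8 to 103 and 107 to 110 FPKM. No other marker of that list was called higher against DMSO in either line. SCR was called higher at 14 h against 10 h in both lines. It had 32.6, 28.3 and 34.7 FPKM under DMSO, 10 h and 14 h with ZAT14-like, and 31.4, 29.6 and 36.2 FPKM with ZAT14. In the ZAT14-like line SHR was called lower at both times, at 25.6, 20.1 and 20.5 FPKM under DMSO, 10 h and 14 h. CYCB1;1 was called lower there at 14 h, at 17.2, 16.2 and 10.9 FPKM. In the ZAT14 line WOX5 was the 1 meristem marker called against DMSO. The cortex marker CORTEX was higher at 10 h in both lines, at 12.9, 26.2 and 13.4 FPKM with ZAT14-like and 10.9, 20.2 and 9.5 FPKM with ZAT14. Of 3 tested wound and jasmonate markers, WRKY40 and ZAT10 were higher at 14 h with ZAT14-like and WRKY40 with ZAT14. The part of these markers in the GH3 results was not tested.

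**Figure D4:**
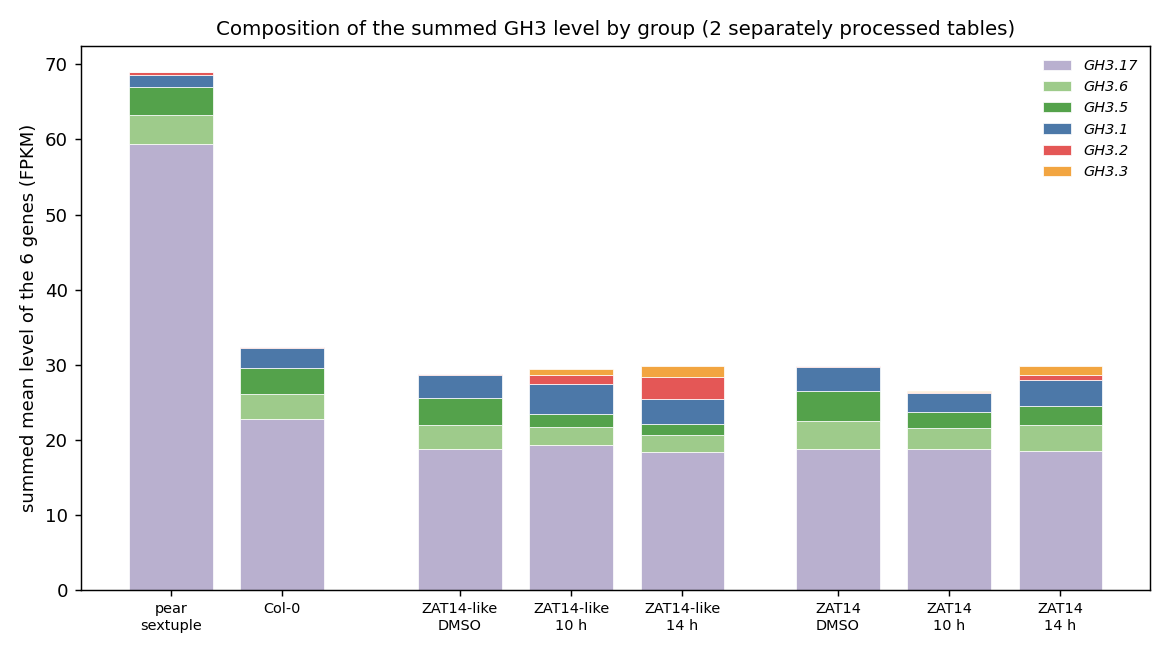
Mean FPKM of the 6 GH3 genes stacked by group, for pear sextuple and Col-0 and, from a table that was processed separately, the ZAT14-like and ZAT14 lines on DMSO and after 10 h and 14 h of estradiol (n = 3 libraries a group). GH3.17 is the largest segment in every group, and the sum is 69 FPKM in pear sextuple, 32.4 FPKM in Col-0 and 26.5 to 29.8 FPKM in the ZAT groups.

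The members were also set against each other over the 18 libraries of the ZAT table. As a description on the log2(FPKM + 1) scale, which reflects the same group changes as the tests, GH3.2 and GH3.3 had a Pearson r of 0.849 and GH3.5 and GH3.6 of 0.795, while GH3.5 had r = -0.818 with GH3.2 and -0.769 with GH3.3. GH3.6 had r = -0.679 with GH3.2 and -0.523 with GH3.3, GH3.1 had 0.449 and 0.485, and GH3.17 stayed between -0.0134 and 0.0212 with both. Of 5719 other genes with a symbol and a mean of at least 5 FPKM, the nearest in pattern to GH3.2 were RPT3 (r = 0.962), ARA7 (0.941) and SRC2 (0.937), and to GH3.3 scpl37 (0.965), S6K2 (0.948) and PAO2 (0.937). The nearest to GH3.5 were BHLH32 (0.95), LPD1 (0.922) and PHV (0.904), and to GH3.6 UAP56b (0.857), NRPA2 (0.856) and RS31 (0.847). GH3.1 and GH3.17 had no close neighbour: their best were AUF1 (0.684), PUB26 (0.676) and SUT2 (0.652), and BZIP34 (0.682), PAP9 (0.661) and NLM1 (0.654). The libraries share groups and scaling, so these values are not evidence of a link between genes.

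In sorted sieve element reporter cells no member differed between PLT2 estradiol and DMSO past the test. The levels are normalised CPM, counts scaled to the library total times its TMM normalisation factor (0.717 to 1.28). GH3.5 had 27.4, 11.9 and 9.96 CPM after PLT2 estradiol and 20.6, 7.99 and 7.74 CPM on DMSO. GH3.17 had 26, 16.3 and 15.4 CPM after estradiol and 18.8, 2 and 31.1 CPM on DMSO. GH3.6 had 13.2, 2.6 and 5.07 CPM after estradiol and 12.8, 1.2 and 34 CPM on DMSO. All 3 genes overlapped between the groups, and libraries of 1 group differed more than the group means did. The edgeR log2 differences were 0.44 for GH3.5 (adjusted p = 0.698), 0.15 for GH3.17 (95% interval -1.32 to 1.62, adjusted p = 0.934) and -1.21 for GH3.6 (adjusted p = 0.548).

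GH3.3 was the 1 member whose sorted groups did not overlap, with 0.847, 0.26 and 0.309 CPM after PLT2 estradiol and 0.925, 1.24 and 1.75 CPM on DMSO, from 40, 14 and 16 counts and 40, 28 and 48 counts. Its edgeR log2 difference was -1.46 (SE 0.85, adjusted p = 0.38). GH3.1 had 117, 75 and 59 counts after estradiol and 107, 0 and 0 on DMSO, and a count of 0 allows up to 3 counts. Its edgeR log2 difference of 0.99 (95% interval -2.23 to 4.21, adjusted p = 0.786) passed the test only when the DMSO library with 107 counts was left out (adjusted p = 0.0426), a fit against 2 libraries at 0 whose size depends on the prior count. GH3.2 had 0.127, 0.316 and 0.232 CPM after estradiol and 0.347, 0 and 0.146 CPM on DMSO (edgeR adjusted p = 0.899). At this spread the 95% intervals were wide. Those of GH3.1, GH3.2 (-2.13 to 2.92) and GH3.17 (-1.32 to 1.62) reach past a log2 difference of 1 in either direction. Those of GH3.3 (-3.14 to 0.21), GH3.5 (-0.59 to 1.46) and GH3.6 (-3.15 to 0.73) do so in 1 direction. Among all genes 0.657% were called, no member was called by edgeR, none had an unadjusted p under 0.05, and DESeq2 called no member among the 3070 of 20476 genes it called. Without PLT2_DMSO replicate 2, the library that stood apart, edgeR called 0 genes in all, and the log2 difference of GH3.17 was -0.37. Summed sieve element markers, all 12 detected, were 4211 to 8435 CPM after estradiol and 9621 to 19744 CPM on DMSO. Of the 12, SEOR1 was called lower and 0 were called higher. OPS went against the sum, with means of 28.3 CPM after estradiol and 12 CPM on DMSO. The part of these markers, and that of the differing gates, was not tested.

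Per kilobase of exon GH3.17 and GH3.5 had close mean levels in the sorted cells. GH3.17 averaged 7.03 CPM per kb after PLT2 estradiol and 6.32 on DMSO, GH3.5 6.97 and 5.14, and GH3.6 2.99 and 6.9. The other 3 were lower, GH3.1 at 0.746 and 0.368, GH3.3 at 0.223 and 0.617 and GH3.2 at 0.104 and 0.0757 CPM per kb. GH3.17 made up 41.1 ± 6.64% of the summed level per kb after estradiol and 27.2 ± 12% on DMSO (SD, n = 3 each). These files were made by another protocol than the meristem tables, and the shares are set side by side without a test.

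**Figure D5:**
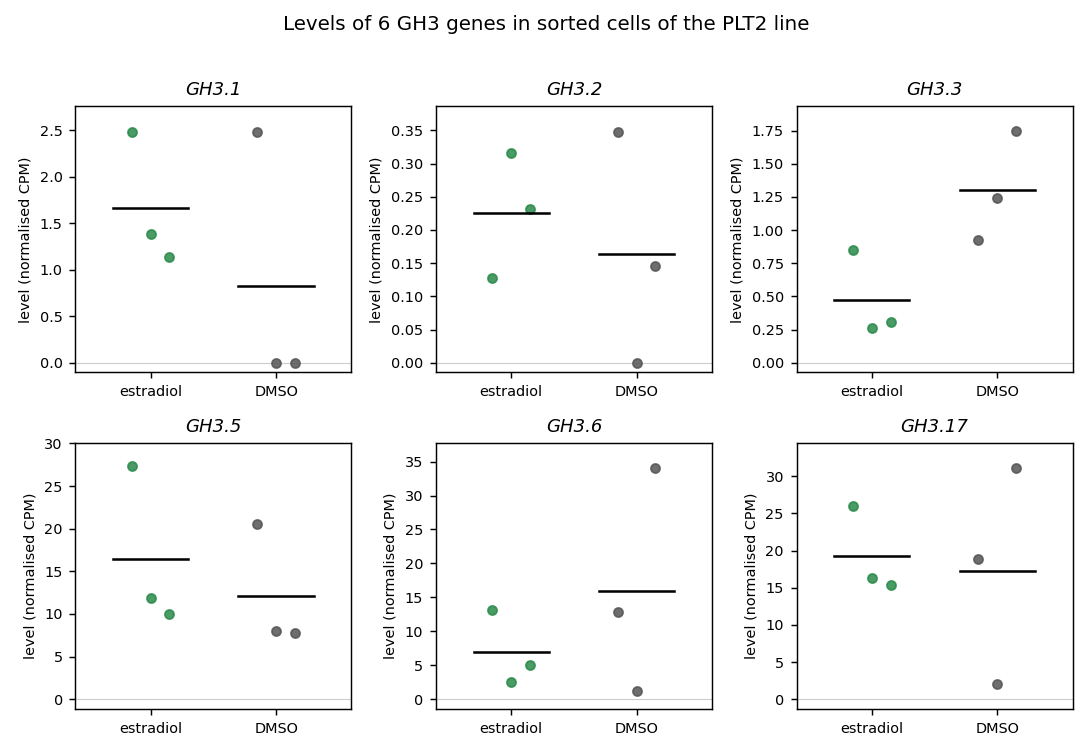
Normalised CPM (linear axis) of each of the 6 GH3 genes in every sorted-cell library, after PLT2 estradiol and on DMSO, 1 panel per gene with its own axis. Points are libraries and black lines are means of 3. The groups overlap for all genes except GH3.3, and 2 DMSO libraries of GH3.1 are at 0.

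The other 13 listed genes of the GH3 family include JAR1, which joins jasmonate to isoleucine, and GH3.15, which acts on indole-3-butyric acid. In pear sextuple against Col-0 all 6 that were tested were called, 4 higher (GH3.15, JAR1, GH3.14 and GH3.10) and 2 lower (GH3.7 and GH3.8), and each direction was the same after rescaling. As above, 44.6% of all genes were called higher and 18.6% lower in this comparison, and the counts of this and the following lists in pear sextuple stand beside those shares. GH3.15 averaged 28.2 ± 0.981 FPKM in pear sextuple and 1.98 ± 0.492 FPKM in Col-0 (limma adjusted p = 1.24e-06). GH3.7 averaged 2.14 ± 0.447 FPKM in pear sextuple and 23.2 ± 4.62 FPKM in Col-0 (log2 difference -2.94, limma adjusted p = 4.27e-06). JAR1 averaged 79.2 ± 0.936 FPKM in pear sextuple and 27.5 ± 2.67 FPKM in Col-0, above the level of GH3.17 in each (SD, n = 3 each). Among the ZAT libraries 7 of the 13 were tested. GH3.7 was lower at 10 h (log2 difference -0.76) and 14 h (-0.83) in the ZAT14-like line and at 14 h (-0.54) in the ZAT14 line. JAR1 was lower at 14 h in both lines (-0.31 in the ZAT14-like line and -0.43 in the ZAT14 line) and higher at 10 h in the ZAT14 line (0.32). GH3.14 was lower at 14 h in both lines, by -0.26 and -0.27, and GH3.10 was higher at 14 h in the ZAT14-like line, by 0.23.

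The IAA-amino acid hydrolases release auxin from its conjugates. Of the 7 listed, 6 were tested in each FPKM table. In pear sextuple 5 were higher than in Col-0 and none lower, among them ILL6, which also cleaves jasmonate conjugates (9.45 ± 0.837 FPKM in pear sextuple and 3.27 ± 0.626 FPKM in Col-0, SD, n = 3 each), ILL2 (log2 difference 0.72), ILL3 (0.61) and IAR3 (0.47), and the same 5 were called higher after rescaling. In the ZAT lines the 1 call against DMSO was ILL6, lower at 14 h in the ZAT14 line (log2 difference -0.51, limma adjusted p = 0.034). DAO1 averaged 7.31 ± 0.631 FPKM in pear sextuple and 3.2 ± 0.538 FPKM in Col-0 (SD, n = 3 each; log2 difference 0.99, limma adjusted p = 0.000202). It was the 1 call among 2 tested genes of other auxin inactivation, and the 1 such gene tested in the ZAT table was not called.

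Auxin is made from tryptophan by the TAA and YUC enzymes. Of the 14 biosynthesis genes 6 were tested in each FPKM table. In pear sextuple the flavin monooxygenase genes YUC8 (log2 difference 1.48) and YUC6 (0.97) and the aminotransferase gene TAR2 (0.64) were higher than in Col-0, and TAR2 was no longer called after rescaling. In the ZAT14-like line YUC6 was higher (0.41) and YUC7 lower (-0.66) at 10 h, and TAA1 was higher (0.48) and YUC3 lower (-0.38) at 14 h. With ZAT14, TAA1 was higher at 14 h (0.38), and none was called at 10 h. All 6 auxin receptor genes were tested. TIR1 (0.96), AFB2 (0.49), AFB3 (0.41) and AFB4 (0.46) were higher in pear sextuple, AFB3 without a call after rescaling, and in the ZAT lines against DMSO TIR1 alone was called, higher at 10 h in the ZAT14 line (0.31).

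All 8 listed auxin response factors were tested, and in pear sextuple 5 were higher and 2 lower than in Col-0, as after rescaling. ARF5 averaged 25.7 ± 1.18 FPKM in pear sextuple and 11.9 ± 1.47 FPKM in Col-0 (SD, n = 3 each), ARF16 and ARF10 had log2 differences of 0.62 and 0.46, and ARF19 was lower (-0.45). In the ZAT14-like line ARF8 was lower at 10 h (-0.30). At 14 h ARF16 (0.35) and ARF10 (0.26) were higher and ARF5 (-0.24) and ARF8 (-0.26) lower. With ZAT14, ARF16 (0.38) and ARF10 (0.31) were higher at 14 h and none was called at 10 h.

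Among the 12 other auxin-responsive genes, those of the Aux/IAA repressor family moved in both directions. In pear sextuple against Col-0, with 6 tested, IAA2 was higher (log2 difference 1.17) and IAA19 lower (-1.66). After rescaling IAA1 and IAA20 were also called lower. Among the ZAT libraries 5 were tested. With ZAT14-like, IAA20 (log2 differences -0.96 at 10 h and -1.30 at 14 h) and IAA30 (-0.92 and -1.53) were lower at both times. IAA2 was higher at 10 h (0.81) and 14 h (0.53), and IAA19 at 14 h (0.80). With ZAT14, IAA20 was lower at 10 h (-0.61) and 14 h (-0.81), IAA30 was lower at 14 h (-1.10), and IAA19 was higher at 14 h (0.70). None of the genes on these pathway lists was called in the sorted cells, in the difference between the lines' responses, or between the lines on DMSO. GH3.4, another gene of the GH3 family, was listed at 0 in all 24 meristem libraries. In the sorted cells it averaged 0.382 ± 0.107 CPM after PLT2 estradiol and 0.0398 ± 0.0369 CPM on DMSO (SD, n = 3 each). Its edgeR log2 difference was 3.12 (adjusted p = 0.203).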

How the data were processed

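The 2 tables for meristem libraries hold FPKM that the authors deposited, made with TopHat2 and HTSeq on TAIR10, per the submitters' processing notes. The 6 sorted-cell files hold raw counts per gene that the authors deposited, with Bowtie2 and featureCounts named in the same notes. Versions, strand setting and annotation are not given in the sources used here. An FPKM value shifts when abundant genes take more of a library, and cDNA of the sorted cells was amplified by PCR before counting, per the labels' protocols, so reads are not independent molecules.

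Groups came from sample titles. In R 4.3.3, log2(FPKM + 1) was fitted with limma 3.58.1 (trend) for genes reaching 1 FPKM in 3 or more libraries, the mutant table alone and the ZAT table with 6 group means over 18 libraries. Counts were tested with edgeR 4.0.16 (quasi-likelihood, TMM, filterByExpr). Tests were two-sided, with Benjamini-Hochberg adjustment over all genes tested and calls at an adjusted p under 0.05. Intervals are the log2 difference ± 1.96 SE. This multiplier makes no allowance for the few libraries, so the intervals are somewhat narrower than the tests imply. For GH3.6 between 10 h and 14 h in the ZAT14 line the interval was 0.01 to 0.40, with an unadjusted limma p of 0.0602. The fits were tested on simulated data, with changes put only into genes of higher mean level than GH3.2 and GH3.3. The simulated sorted cells had the same scatter setting for every gene. The simulations therefore do not cover GH3.2 and GH3.3 or the uneven scatter of the sorted libraries.

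Locus codes were looked up in TAIR10.1 (31912 of 32678 identifiers of the mutant table, 32548 of 34218 of the ZAT table and 32835 of 33602 of the sorted-cell files matched). The files name TAIR10 and carry no coordinates. Depth of FPKM libraries was estimated from the steps of low values, of which 78.3% to 81.2% in the ZAT table and 40.6% to 44.2% in the mutant table were whole within 0.05. Named genes were the 6 members, the targeted genes, up to 4 called genes of each pathway list per comparison by adjusted p, and for each member the 3 genes most like it. The members and lists were chosen with earlier results of these data known.

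Alternatives were another pseudocount, dropping the low-value filter, median-ratio rescaling, a replicate block, only the compared groups, the libraries numbered 2 left out together, each library left out, DESeq2 1.42.0 and its size factors.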

Additional observations from a re-analysis of the deposited data

Results flagged for a closer look

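GH3.2 passed the test of the difference between the responses of the ZAT14-like and ZAT14 lines to estradiol at both times in the main fit. GH3.2 reached 1 FPKM only in the ZAT14-like libraries at 10 h and 14 h, through which it passed the filter on low values. Nothing is therefore read from its being the 1 member called. The 10 h call was lost with only the compared groups (limma adjusted p = 0.0727) and without the libraries numbered 2 (adjusted p = 0.0594). The ZAT14-like response exceeded the ZAT14 response by 1.05 on the log2(FPKM + 1) scale at 10 h and by 1.35 at 14 h. At 10 h the change from DMSO was 1.11 in the ZAT14-like line and 0.07 in the ZAT14 line, and at 14 h it was 1.89 in the ZAT14-like line and 0.54 in the ZAT14 line. On DMSO the transgene transcript of the ZAT14-like line was already above its level in the ZAT14 line, and GH3.2 had 0, 0.0362 and 0.0664 FPKM in the ZAT14-like line and 0.0865, 0.0687 and 0.18 FPKM in the ZAT14 line.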

How the results depend on the processing

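No direction of a called member was reversed under any alternative. Counts of members and of all genes called that moved by over 1.5 times are given here. For members, a pseudocount of 0.1 FPKM gave 1 between 14 h and 10 h in the ZAT14-like line and 2 at 10 h in the ZAT14 line. Fitting only the compared groups gave 1 between 14 h and 10 h in the ZAT14-like line. In the ZAT14 line it gave 0 at 10 h, 1 at 14 h and 0 between 14 h and 10 h, and it gave 0 for the difference between responses at 10 h. Without the libraries numbered 2, 1 member was called between the times in the ZAT14-like line and 0 in the 10 h difference between responses. GH3.2 and GH3.3 did not pass the low-value filter in the ZAT14 groups alone, so 4 members were tested there. Replicate numbers were not used as pairs in the main fits. Deviations of same-numbered libraries from their group means correlated at 0.253 to 0.355 (2 pairs) in the mutant table. Its differently numbered pairs lay lower, at -0.38 to 0.16 (7 pairs), and 2 pairs do not settle whether the libraries were paired. In the ZAT table the values were -0.161 to 0.502 for the same number (34 pairs) and -0.498 to 0.456 for different numbers (101 pairs). Pairs numbered 2 there correlated at 0.417 to 0.482. In the sorted cells the values were -0.0476 to 0.17 (2 pairs) and -0.332 to 0.265 (7 pairs). The replicate block gave 2 members called in pear sextuple, 3 in the ZAT14-like line at 10 h and 3 in place of 4 at 14 h, where GH3.6 was lost (limma adjusted p = 0.113), and gave 1 in the sorted cells, GH3.17 (log2 difference 1.69, edgeR adjusted p = 0.0429), with 1829 genes called in place of 162. Leaving out 1 library gave 1 to 2 members called in pear sextuple, 3 to 4 in the ZAT14-like line at 10 h and at 14 h, 1 to 2 between its times, 1 at 10 h and 1 to 3 at 14 h in the ZAT14 line, 1 to 2 between its times, 1 for the difference between responses at 10 h and at 14 h, 0 between the lines on DMSO and 0 to 1 in the sorted cells. Over all genes, fitting only the compared groups gave 406 in place of 2365 in the ZAT14-like line at 10 h, 297 in place of 1485 between its times, 72 in place of 551 in the ZAT14 line at 10 h, 4 in place of 31 for the 10 h difference between responses and 11 in place of 17 between the lines on DMSO. Without the libraries numbered 2 these were 1049 at 10 h and 1060 (in place of 2123) at 14 h in the ZAT14-like line, 360 and 309 (in place of 735) in the ZAT14 line, 14 and 30 (in place of 62) for the differences between responses, and 9 between the lines on DMSO. The 10 h and 14 h differences between responses counted 16 and 15 genes with a pseudocount of 0.1 FPKM, and the 14 h difference 121 without a filter. Over all genes the sorted-cell count ran from 0 to 1833 when 1 library was left out, and was 3070 with DESeq2 (no member among them), 626 without a filter and 92 with DESeq2 size factors. For the other changes the cause was not tested. Depth limits GH3.2 and GH3.3 on DMSO, at 0 to 7.9 estimated fragments a library.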
